A study of Homo sapiens with 6 samples.

Results

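Genes of iron handling were examined in HepG2, a human liver cancer cell line that keeps many hepatocyte functions. The set held 10 genes, chosen by name among the 26475 genes of the deposited table: the hormone gene HAMP, the carrier TF, the receptors TFRC and TFR2, the sensor HFE, the ferritin chains FTH1 and FTL, the transporters SLC40A1 and SLC11A2, and the RNA-binding regulator ACO1. All 10 were among the 12902 genes that passed the filter on low counts. RNA sequencing covered 3 libraries of HepG2 cells expressing TAF2, one of the proteins that make up the promoter-binding factor TFIID, and 3 libraries of HepG2 cells expressing eGFP, a fluorescent reporter. No drug, iron load or other agent is named for either group, and RNA came from cells in exponential growth. The sources used here do not say how the proteins were introduced, whether each group is a clone or a pool of cells, or whether replicate libraries stem from different cultures. Each p-value therefore speaks of differences among these 6 libraries, whose spread may be technical.

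Libraries held between 22276308 and 28024004 expected counts. TAF2 itself had 50.1, 48.3 and 47.4 counts per 1000000 counts of the library (CPM) in TAF2 libraries, against 35.8, 40.4 and 37.5 CPM in eGFP libraries. All 9 hepatocyte markers were measured, and their summed level was 38559 to 40301 CPM in TAF2 libraries and 47925 to 49551 CPM in eGFP libraries; 8 of them fell and FGB rose. The macrophage genes PTPRC, CD163, MARCO, VSIG4 and CD5L were at 0 in all 6 libraries, so the summed level of that list (2234 to 2286 CPM in TAF2 and 1892 to 2006 CPM in eGFP libraries) was almost entirely lysozyme, LYZ. Endothelial markers summed to at most 1.32 CPM in TAF2 and 1.44 CPM in eGFP libraries, with STAB2, CLEC4G and KDR at 0. Stellate and fibroblast markers summed to 20.4 to 21.8 CPM in TAF2 and 8.14 to 9.22 CPM in eGFP libraries, mostly PDGFRB, with DCN, LRAT and LUM at 0. Erythroid markers summed to at most 4.75 CPM in TAF2 and 4.29 CPM in eGFP libraries, with HBB and ALAS2 at 0.

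Hepatocytes are the main source of transferrin, which carries iron in blood, and of hepcidin, the hormone encoded by HAMP. Hepcidin binds the iron exporter ferroportin, the product of SLC40A1, and causes its loss from the cell surface. Inside cells, iron regulatory proteins bind hairpins called iron-responsive elements when iron is scarce. Binding in the 5′ UTR blocks translation, as for the ferritin chains and ferroportin, and binding in the 3′ UTR protects the messenger RNA from decay, as for the transferrin receptor TFRC. A change of iron supply therefore acts on TFRC messenger RNA directly, but on ferritin mainly at translation, which RNA sequencing does not measure.

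These hairpins are shown because they are the known sites through which iron acts on the messages of several members. GENCODE release 29 transcripts (GRCh38), matched through the RefSeq accessions of the deposited table, were searched on the sense strand for CNNNNNCAGTGNNNNNN, with both runs of 5 bases around the CAGTGN loop able to pair (A-T, G-C or G-T). With all 5 pairs required, 242 of 18628 genes (1.30%) had a match, and with 4 pairs 1912 genes (10.3%). The loop is in capitals, and each sequence has 6 further bases on each side of the motif.
FTH1, 5′ UTR, chr11:61967574-61967602, minus strand: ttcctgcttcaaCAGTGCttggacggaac
FTL, 5′ UTR, chr19:48965335-48965363, plus strand: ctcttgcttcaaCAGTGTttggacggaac
SLC40A1, 5′ UTR, chr2:189580661-189580689, minus strand: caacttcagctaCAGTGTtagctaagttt
TFRC, 3′ UTR, chr3:196050979-196051007, minus strand: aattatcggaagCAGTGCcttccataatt
TFRC, 3′ UTR, chr3:196050575-196050603, minus strand: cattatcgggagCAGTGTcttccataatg
TFRC, 3′ UTR, chr3:196050510-196050538, minus strand: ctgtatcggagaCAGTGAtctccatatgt
TFRC, 3′ UTR, chr3:196050463-196050491, minus strand: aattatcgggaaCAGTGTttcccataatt
SLC11A2, 3′ UTR, chr12:50988269-50988297, minus strand: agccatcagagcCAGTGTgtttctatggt

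TFRC held 4 matches with 5 pairs, and FTH1, FTL and SLC40A1 held 1 each in the 5′ UTR. The SLC11A2 sequence has 4 pairs and lies in the 3′ UTR of some of its transcripts, which a count per gene does not separate. HFE and ACO1 each had a further match with 4 pairs in the 3′ UTR, and TF had a match with 5 pairs in a 3′ UTR that GENCODE extends far past the coding part. HAMP and TFR2 had none. A match describes letters only, and binding was not measured.

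Of the 10 iron genes, 5 fell in TAF2 cells, 2 rose and 3 did not pass the test, which was edgeR's quasi-likelihood test with Benjamini-Hochberg (BH) adjustment over all tested genes at 0.05. That is 7 of 10 called, against 43.0% of all tested genes (22.4% lower and 20.6% higher). The groups did not overlap for 8 of the 10, against 50.6% of all tested genes: TAF2 libraries were all lower for 5 (26.1% of all tested genes) and all higher for 3 (24.5%). HAMP, TF, TFR2, SLC11A2 and TFRC fell, FTL and SLC40A1 rose, and FTH1, HFE and ACO1 were not called. The median absolute log2 fold change was 0.31 over the 10 genes and 0.13 over all tested genes. When edgeR tested for a change above 1.5-fold, 0 of the 10 passed (0 also at an unadjusted p under 0.05), and 2.89% of all tested genes did.

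**Figure D1:**
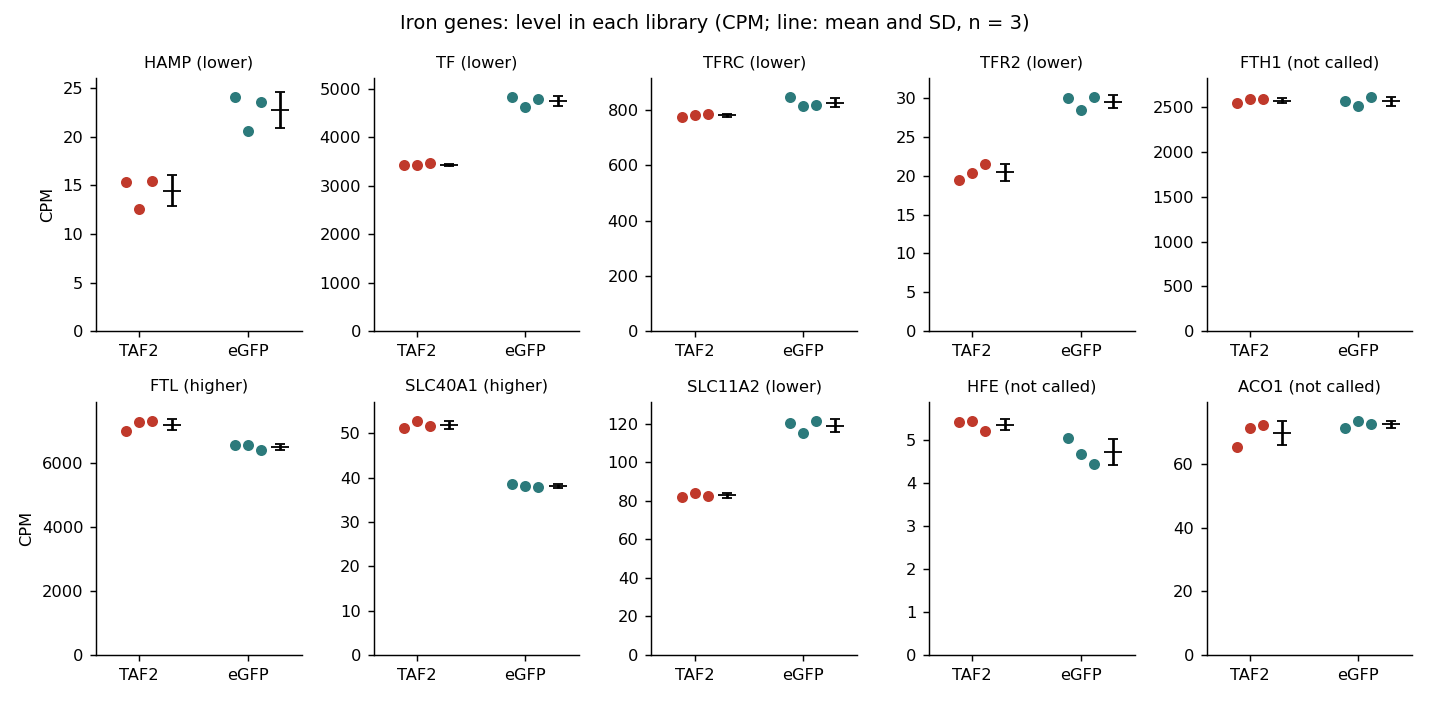
Level of each of the 10 iron genes in CPM (vertical axes, each starting at 0) in the 3 TAF2 and the 3 eGFP libraries; points are libraries, and the black mark is the mean with its SD. HAMP, TF, TFR2 and SLC11A2 sit well below the eGFP points in TAF2 libraries, SLC40A1 sits above, and FTH1 and ACO1 overlap.

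HAMP, at chr19:35282528-35285143 (GRCh38.p14), had 15.4, 12.6 and 15.4 CPM in TAF2 libraries, against 24.1, 20.6 and 23.6 CPM in eGFP libraries. Every TAF2 library was below every eGFP library. It fell by 36.6%, the largest change of the set (log2 fold change -0.66, SE 0.074, edgeR adjusted p = 9.22e-09), and 848 of 12902 tested genes had a larger absolute change. These levels rest on 321 to 432 counts per TAF2 library and 458 to 653 per eGFP library.

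TF, the carrier transferrin, had 3421, 3422 and 3463 CPM in TAF2 libraries, against 4830, 4627 and 4798 CPM in eGFP libraries. It was lower in all 3 TAF2 libraries, by 27.7% (log2 fold change -0.47, SE 0.019, edgeR adjusted p = 7.16e-24). Divided by albumin, ALB, in each library, TF gave a ratio of 0.678 ± 0.00486 in TAF2 and 0.612 ± 0.0151 in eGFP libraries (SD, n = 3 each). TF was thus higher relative to ALB in every TAF2 library, since ALB had a log2 fold change of -0.62. The exact two-sided permutation p was 0.10, the smallest that 3 against 3 libraries can give, and 0.12 after BH adjustment over 6 such ratios. Of the hepatocyte markers, only ALB was used as a divisor of TF. All 9 markers had a median log2 fold change of -0.31, with AFP at -0.14 and APOA1 at -0.82, so another divisor could give another direction. Of the 9 markers, 5 lie outside chromosomes 4 and 11, and all 5 fell (median -0.31). The others lie on those chromosomes, where the surroundings of other listed genes were lowered, as given below. The part of those surroundings in the marker levels was not tested. HAMP was 0.421% ± 0.0456 of TF in TAF2 and 0.479% ± 0.0291 in eGFP libraries (SD, n = 3 each), and this ratio overlapped between groups (exact two-sided permutation p = 0.20, also 0.20 adjusted over the 6 ratios). HAMP and TF fell beside the lower summed level of hepatocyte markers given above, whose part in the result was not tested. In a bulk sample, fewer cells of a kind and less RNA per cell cannot be told apart.

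The receptors moved by unequal amounts. TFRC, which takes up transferrin-bound iron in most cells, had 774, 781 and 785 CPM in TAF2 libraries, against 846, 814 and 819 CPM in eGFP libraries. The groups did not overlap, but TFRC fell by 5.67% (log2 fold change -0.08, SE 0.021, edgeR adjusted p = 0.000888). In all, 64.1% of tested genes had a larger absolute change. TFR2, a liver receptor that senses transferrin saturation upstream of hepcidin, had 19.4, 20.3 and 21.6 CPM in TAF2 libraries, against 29.9, 28.5 and 30.1 CPM in eGFP libraries. It fell by 30.8% (log2 fold change -0.53, SE 0.056, edgeR adjusted p = 1.84e-10). In each library TFRC was divided by TFR2, and this ratio was 38.2 ± 1.73 in TAF2 and 28.0 ± 0.701 in eGFP libraries (SD, n = 3 each; exact two-sided permutation p = 0.10, 0.12 adjusted over the 6 ratios), and did not overlap between groups. Per kilobase of the matched transcripts (5032 and 2888 bases), TFRC stood at 155 ± 1.13 and TFR2 at 7.08 ± 0.372 CPM per kb in TAF2 cells, and at 164 ± 3.38 and 10.2 ± 0.302 in eGFP cells, so TFRC was the more abundant receptor message in both groups.

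HFE, the MHC class I-like protein that joins TFR2 in iron sensing and is mutated in hereditary hemochromatosis, had 5.43, 5.46 and 5.21 CPM in TAF2 libraries, against 5.05, 4.68 and 4.45 CPM in eGFP libraries. The TAF2 values were all above the eGFP values, yet the difference did not pass the test (log2 fold change 0.18, 95% interval -0.06 to 0.42, edgeR adjusted p = 0.234). Hemojuvelin, the BMP co-receptor of the same sensing route, listed under its older symbol HFE2, had at most 1 count in a library.

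Ferritin stores iron in a shell of heavy chains, which oxidise iron, and light chains, which help to lay down the mineral. FTL had 6990, 7271 and 7306 CPM in TAF2 libraries, against 6558, 6551 and 6392 CPM in eGFP libraries. It rose by 10.6%, with no overlap (log2 fold change 0.15, SE 0.018, edgeR adjusted p = 1.18e-08). FTH1 had 2542, 2585 and 2588 CPM in TAF2 libraries, against 2566, 2510 and 2610 CPM in eGFP libraries. Its groups overlapped, and the log2 fold change of 0.01 had a 95% interval from -0.03 to 0.04 (edgeR adjusted p = 0.853).

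The heavy chain's share of ferritin counts was 26.7%, 26.2% and 26.2% in TAF2 libraries, against 28.1%, 27.7% and 29.0% in eGFP libraries. The share was lower in every TAF2 library, with a mean difference of -1.92 percentage points (exact two-sided permutation p = 0.10, the smallest possible, and 0.12 adjusted over the 6 ratios). Both chains together summed to 9760 ± 199 CPM in TAF2 and 9062 ± 61.0 CPM in eGFP libraries (SD, n = 3 each). Per kilobase of transcript (878 and 1229 bases), FTL stood at 8188 ± 198 and FTH1 at 2092 ± 20.8 CPM per kb in TAF2 cells, and at 7403 ± 107 and 2085 ± 40.7 in eGFP cells. Ferritin has many pseudogene copies that can share reads with it. FTH1P3 had 3 to 10 counts per library, and FTH1P18 and FTLP10 had 0.

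The transporters moved in opposite directions. SLC40A1, the gene of ferroportin, the known iron exporter of mammalian cells, had 51.2, 52.8 and 51.8 CPM in TAF2 libraries, against 38.6, 38.1 and 37.8 CPM in eGFP libraries. It rose by 36.1% (log2 fold change 0.44, SE 0.042, edgeR adjusted p = 9.26e-12), and the gap was many times the spread within either group. SLC11A2, the gene of the divalent metal transporter DMT1, which moves iron across membranes into the cytosol, had 81.9, 84.2 and 82.3 CPM in TAF2 libraries, against 120, 115 and 121 CPM in eGFP libraries. It fell by 30.4% (log2 fold change -0.52, SE 0.031, edgeR adjusted p = 6.87e-18).

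ACO1 encodes a protein that is a cytosolic aconitase when it holds an iron-sulfur cluster and iron regulatory protein 1 (IRP1) when it does not. It had 65.3, 71.3 and 72.2 CPM in TAF2 libraries, against 71.3, 73.5 and 72.5 CPM in eGFP libraries. The groups overlapped and the gene was not called (log2 fold change -0.06, 95% interval -0.13 to 0.02, edgeR adjusted p = 0.246). Its relative IREB2, iron regulatory protein 2, was not called either (118 CPM in TAF2 and 123 CPM in eGFP cells, edgeR adjusted p = 0.0952). Set beside the hairpins printed above, the members with a 5′ UTR match had log2 fold changes of 0.44 (SLC40A1), 0.15 (FTL) and 0.01 (FTH1), and TFRC and SLC11A2, with 3′ UTR matches, had -0.08 and -0.52. EPAS1, the hypoxia factor HIF-2α, whose message is known to carry a 5′ UTR element, had no match under these letters and fell (log2 fold change -0.33, edgeR adjusted p = 4.99e-15).

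**Figure D2:**
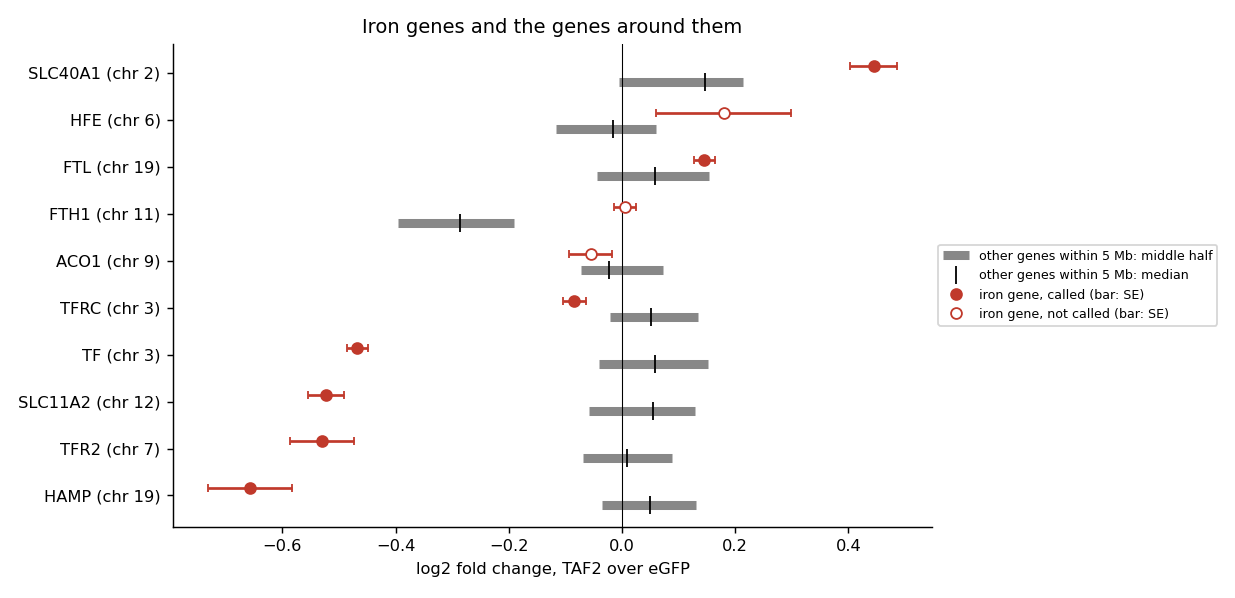
Log2 fold change of each iron gene, TAF2 over eGFP (horizontal axis; points with SE, filled where called), with the median and the middle 50% of the other tested genes of at least 5 CPM within 5 Mb on either side (black tick and grey bar). HAMP, TF, TFR2 and SLC11A2 lie far below their neighbours, and FTH1, at 0.01, lies above neighbours with a median of -0.29.

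Each member was also set beside the other tested genes of at least 5 CPM within 5 Mb, as a description without a test. The other 592 such genes of chromosome 11 had a median log2 fold change of -0.27. FTH1, at chr11:61964285-61967634, lay among 163 such genes with a median log2 fold change of -0.29, of which 155 were lower than FTH1 and 8 higher. Its nearest neighbours were FADS3 (log2 fold change 0.09, not called) and INCENP (-0.18). SLC40A1, at chr2:189560590-189580786, lay among 16 genes with a median of 0.15, and was above all 16. Its nearest neighbours WDR75 (0.26) and ASNSD1 (0.21) rose as well.

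The 5 members that fell lay among genes with medians between 0.01 and 0.06, but within 2 Mb the median was -0.04 around TF, and with all tested genes counted it was -0.0028 around TFR2. HAMP was below 84 of 86 neighbours (median 0.05), TF, at chr3:133661998-133796641, below all 41 (median 0.06), TFR2, at chr7:100620420-100641552, below 85 of 88 (median 0.01) and SLC11A2, at chr12:50952263-51028886, below 81 of 84 (median 0.06). USF2, which ends 2707 bases before HAMP, rose (log2 fold change 0.11), as did TOPBP1 (0.15), which ends 57 bases before TF. METTL7A, 19755 bases from SLC11A2, fell with it (-0.35, edgeR adjusted p = 5.26e-10). TFRC, at chr3:196049284-196082090, was below 29 of 34 neighbours (median 0.05), and SLC51A, the nearest tested gene after it, fell by 1.01 on the log2 scale (edgeR adjusted p = 3.71e-13). FTL, at chr19:48965309-48966879, was above 97 of 130 (median 0.06), HFE, at chr6:26087429-26098343, above 57 of 60 (median -0.02) and ACO1, at chr9:32384643-32454769, above 14 of 47 (median -0.02).

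Hepcidin transcription is known to be driven by BMP ligands through SMAD proteins and by interleukin 6 through STAT3. The HAMP promoter is shown because both routes meet within it. It comes from RefSeq (GRCh38.p14), chr19:35282278-35282577 on the plus strand, and runs 250 bases before to 50 bases after the annotated start. Capitals mark GGCGCC, the core of the BMP response element, which begins at base -105, and TTCTTGGAA, the STAT3 element, which begins at -93.
HAMP promoter: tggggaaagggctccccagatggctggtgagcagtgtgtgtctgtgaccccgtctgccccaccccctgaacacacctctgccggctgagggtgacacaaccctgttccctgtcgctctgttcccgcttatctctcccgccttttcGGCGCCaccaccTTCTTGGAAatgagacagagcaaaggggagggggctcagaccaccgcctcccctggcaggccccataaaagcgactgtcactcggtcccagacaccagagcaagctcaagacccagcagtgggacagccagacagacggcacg

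Searched on both strands, GGCGCC was in 19.0% of 27305 promoters of the same length, TTCTTGGAA in 0.370%, and the looser TTCNNNGAA, which includes it, in 7.88%. No factor binding was measured.

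Of 33 listed genes of hepcidin control, 28 were tested, of which 9 fell and 4 rose (13 called, or 46.4%, against 43.0% of all tested genes), with a median log2 fold change of -0.00, as over all tested genes. The direct SMAD targets ID1 (313 CPM in TAF2 and 317 CPM in eGFP cells, log2 fold change -0.02), ID3 (0.01), SMAD7 (0.04) and SMAD6 (0.10) were not called. Genes within 5 Mb of them had median log2 fold changes of 0.03 (ID1), -0.16 (ID3), 0.13 (SMAD7) and 0.08 (SMAD6). ID2 fell (-0.22, edgeR adjusted p = 0.00329). Among receptors and carriers of the signal, BMPR1A (-0.16), ACVR2A (-0.21) and NEO1 (-0.12) fell, SMAD5 rose (0.09), and ACVR1, ACVR2B, BMPR2, SMAD1, SMAD4 and SMAD9 were not called. BMP6, the ligand that liver endothelial cells are known to supply, was at 0.441 CPM in TAF2 and 0.504 CPM in eGFP cells.

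Antagonists of the route went both ways. BAMBI, a decoy receptor, had 21.5, 22.2 and 22.5 CPM in TAF2 libraries, against 16.3, 14.1 and 17.4 CPM in eGFP libraries (log2 fold change 0.47, edgeR adjusted p = 2e-07). FURIN, a protease that releases soluble hemojuvelin and also matures prohepcidin, rose by 0.29 (edgeR adjusted p = 5.04e-10), and FKBP1A, an inhibitor of type I BMP receptors, by 0.10. TMPRSS6, the hepatocyte protease that restrains hepcidin, had 2.43, 2.43 and 1.93 CPM in TAF2 libraries, against 3.47, 4.72 and 3.69 CPM in eGFP libraries (-0.80, edgeR adjusted p = 7.12e-05). TMPRSS6 rests on 54 to 105 counts per library. This repressor fell beside HAMP, and a link between them was not tested.

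CREB3L3, the liver transcription factor CREBH, which activates HAMP, had 6.32, 7.85 and 7.03 CPM in TAF2 libraries, against 17.3, 16.8 and 18.2 CPM in eGFP libraries. This was the largest fall among the hepcidin control genes (log2 fold change -1.30, SE 0.085; edgeR adjusted p = 1.09e-16). STAT3 fell by 0.21 on the log2 scale (139 CPM in TAF2 and 162 CPM in eGFP cells, edgeR adjusted p = 5.62e-09), and SOCS3, a STAT3 target, by 0.68 at low level (0.920 CPM in TAF2 and 1.48 CPM in eGFP cells, edgeR adjusted p = 0.0201). CEBPA, a liver factor that activates the HAMP promoter, fell by 0.11 (edgeR adjusted p = 0.00121). The receptor genes IL6R and IL6ST and the kinases JAK1 and JAK2 were not called.

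**Figure D3:**
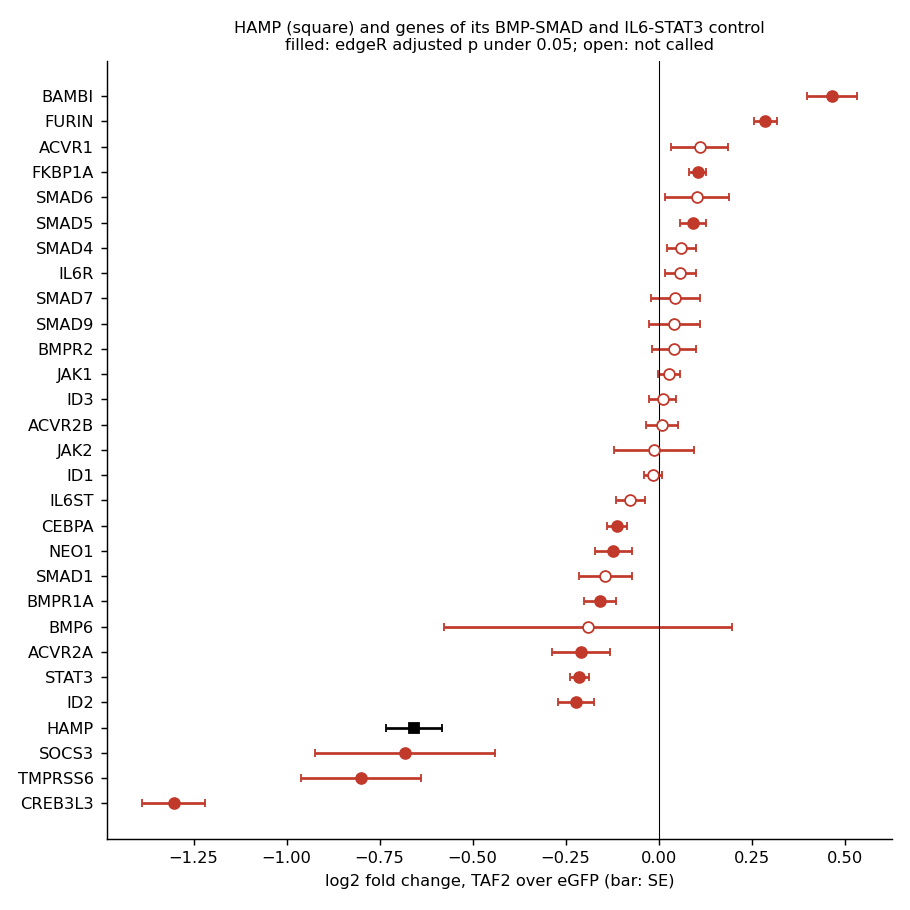
Log2 fold change, TAF2 over eGFP, with SE (horizontal axis) of HAMP (black square) and of 28 tested genes of its BMP-SMAD and IL6-STAT3 control, ordered by value; filled points passed the edgeR test. CREB3L3 (-1.30) lies lowest and BAMBI (0.47) highest, while ID1, ID3, SMAD6 and SMAD7 are open points near 0.

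Of 14 tested genes around iron regulatory proteins and ferritin turnover, 3 rose and 3 fell (42.9%, against 43.0% of all tested genes), with a median log2 fold change of 0.05. EPAS1, given above, had the largest change of the list (-0.33). NCOA4, the receptor that delivers ferritin to lysosomes, fell by 0.10 (628 CPM in TAF2 and 673 CPM in eGFP cells, edgeR adjusted p = 0.000103). PCBP2, an iron chaperone that loads ferritin, rose (0.09), its relative PCBP4 fell (-0.21), and PCBP1 was not called. The amyloid precursor APP (0.12) and CUL1 (0.08), a scaffold of the ligase that removes IRP2, rose, while FBXL5, the iron sensor of that ligase, was not called.

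Of 27 tested genes for other steps of iron and heme transport, 7 fell and 5 rose (44.4%, against 43.0% of all tested genes), with a median of -0.02. STEAP2, a metalloreductase, had 7.05, 6.55 and 6.60 CPM in TAF2 libraries, against 12.5, 14.8 and 12.7 CPM in eGFP libraries (log2 fold change -0.98, edgeR adjusted p = 7.31e-12). Its relative STEAP1, which lies beside it on chromosome 7, fell as well (-0.80), while STEAP3, which reduces iron in the transferrin cycle, was not called (0.03). Haptoglobin, HP, a hemoglobin scavenger of plasma, fell by 0.45 on the log2 scale, and ceruloplasmin, CP, the ferroxidase that works with ferroportin, by 0.09. SLC39A14, a liver importer of iron not bound to transferrin, stood at 916 CPM in TAF2 and 906 CPM in eGFP cells and was not called.

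Heme handling moved in both directions. HMOX1, heme oxygenase, which frees iron from heme, had 50.9, 51.7 and 49.8 CPM in TAF2 libraries, against 42.3, 41.0 and 42.9 CPM in eGFP libraries (log2 fold change 0.27, edgeR adjusted p = 8.91e-07). SLC46A1, known as a folate carrier that also moves heme, fell (-0.33), as did the heme exporter FLVCR1 (-0.18) and BLVRB (-0.23). FLVCR2 (0.38), a relative of FLVCR1, the melanotransferrin gene under its older symbol MFI2 (0.41), the heme transporter SLC48A1 (0.23) and LRP1 (0.06), a receptor for hemopexin-bound heme, rose.

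Of 15 tested heme synthesis genes, 3 rose and 2 fell (33.3%, against 43.0% of all tested genes; median 0.04). FECH, ferrochelatase, which inserts iron into protoporphyrin, had 37.6, 39.0 and 39.0 CPM in TAF2 libraries, against 30.6, 29.6 and 31.2 CPM in eGFP libraries (log2 fold change 0.34, edgeR adjusted p = 1.28e-07). FECH lay among 17 neighbours with a median log2 fold change of 0.15. ABCB6 rose by 0.12 among neighbours with a median of 0.21. TSPO, a protein of the outer mitochondrial membrane, rose by 2.47 at low level (1.60 ± 0.512 CPM in TAF2 and 0.281 ± 0.0709 CPM in eGFP cells, SD, n = 3 each). Among those that fell was UROS (-0.31), uroporphyrinogen synthase. ALAS1, the first and rate-limiting enzyme in liver, was not called (0.07).

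Iron-sulfur cluster assembly had the smallest share of calls among these lists, with 6 of 31 tested genes lower and 3 higher (29.0%, against 43.0% of all tested genes; median -0.03). FDX1, a ferredoxin, fell by 0.36 and CISD2 by 0.18, in surroundings with medians of -0.29 on chromosome 11 and -0.20 on chromosome 4. IBA57 (-0.31), CIAO1 (-0.16), LYRM4 (-0.13) and NFS1 (-0.12), the cysteine desulfurase, fell elsewhere. FDXR (0.18), which reduces ferredoxin, NUBPL (0.23) and GLRX3 (0.10) rose. The scaffold ISCU was not called (0.04).

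**Figure D4:**
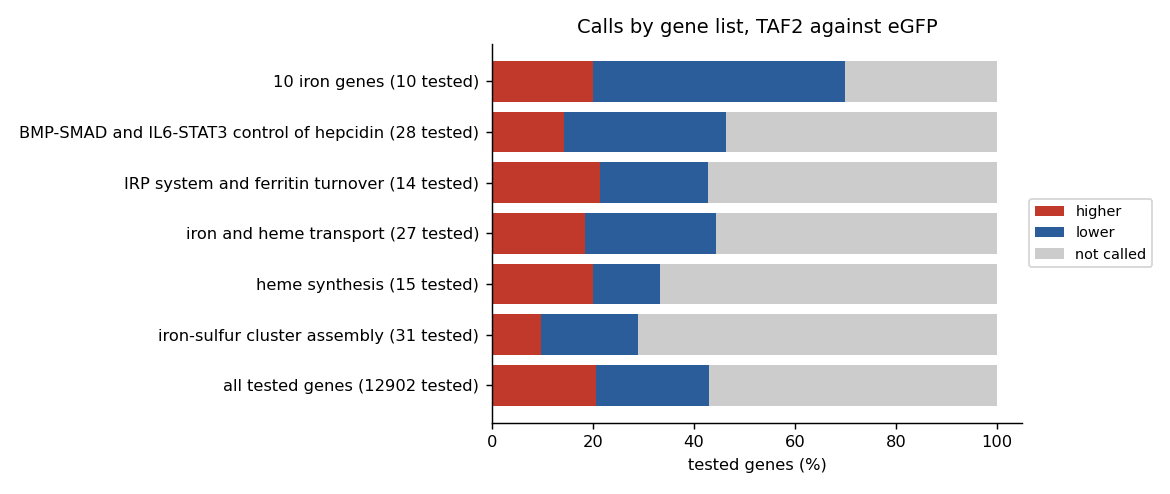
Share of tested genes (horizontal axis, percent) called higher, called lower or not called in TAF2 against eGFP cells, for the 10 iron genes, 5 lists of related genes and all tested genes. Calls made up 70% of the 10 iron genes, 46.4% to 29.0% of the lists and 43.0% of all tested genes.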

How the data were processed

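RNA was sequenced from 6 HepG2 libraries, 3 expressing TAF2 and 3 expressing eGFP. The authors deposited expected counts per gene without normalization; the submitters' processing notes name RSEM and hg38. Which aligner, annotation release and strand setting were used is not given in the sources used here, so reads of overlapping, antisense or near-identical genes cannot be separated. Expected counts, which RSEM divides among genes by probability, were rounded, and 0 sample columns were left unused. Genes kept by filterByExpr were scaled by TMM and compared with edgeR 4.0.16 (R 4.3.3; robust quasi-likelihood test, group alone, BH over 12902 genes, threshold 0.05). The common dispersion gave a biological coefficient of variation of 2.75%, which lets small differences be called. The test was also run on counts simulated from means and dispersions estimated in these libraries. Such counts cannot show whether the spread among replicates is technical. Genes were placed on GRCh38.p14 by RefSeq accession (99.2%). The 10 members, the gene lists and the rule for named genes were chosen with earlier results of these data known. The rule names all members, TAF2, the nearest genes, and in each list the called genes of at least 5 CPM with the 4 smallest p in each direction, besides members whose role is described; some genes it names are left out of the text. Alternatives were other scalings, filters and thresholds, DESeq2 1.42.0, a replicate block, leaving out each library, and, for the genes around a member, a window of 2 Mb or all tested genes.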

Additional observations from a re-analysis of the deposited data

How the results depend on the processing

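The counts of 5 lower and 2 higher iron genes were the same under DESeq2 size factors, upper-quartile scaling, no filter and a filter of 1 CPM. They were also the same under DESeq2's own test, the replicate block and every left-out library. Leaving out genes of chromosomes 4 and 11, chosen after seeing the data, could not change these counts. Of the members only FTH1, which was not called, lies there. Of all placed genes, 2602 higher and 2099 lower of 11665 remained, against 2649 and 2877 of 12805. Tested for changes above 1.5-fold, edgeR called 0 higher and 0 lower iron genes, 153 higher and 220 lower genes in all, 0 higher and 1 lower in hepcidin control, 0 and 0 around iron regulatory proteins, 0 higher and 2 lower in transport, 1 higher and 0 lower in heme synthesis, and 0 and 0 in iron-sulfur assembly. Higher genes around iron regulatory proteins numbered 5, not 3, with DESeq2 size factors, upper-quartile scaling or no filter. Without chromosomes 4 and 11, 1 heme synthesis gene fell, not 2, and 4 iron-sulfur assembly genes fell, not 6. Leaving out single libraries gave 3 to 5 higher transport genes, with 3 without eGFP replicate 3, and moved the fold change of FTH1 between -0.0033 (without eGFP replicate 2) and 0.020 (log2), uncalled throughout. Same-numbered libraries showed no shared positive deviation from their group means (correlations -0.144, -0.224 and -0.148). The labels do not say whether they were handled together. With the replicate block 3, not 5, transport genes were higher. Upper-quartile scaling called 3001 genes higher and 2675 lower, against 2662 and 2886. The median of the genes around a member changed sign for TF (-0.04) and ACO1 (0.02) within 2 Mb, and for TFR2 within 2 Mb (-5.17e-05) and with all tested genes (-0.0028), and kept its sign for the other 7. The cause of these shifts was not tested. HFE rests on 104 to 146 counts per library, the fewest of the 10 iron genes, and its interval is the widest.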
